A study of Mus musculus with 9 samples.

Results

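Rab GTPases were followed as 58 of the 32531 gene rows of the deposited count files, chosen as every row whose symbol is Rab, a number and at most a letter and a further digit. All 58 matched the GENCODE M21 annotation of mm10, 1 of them (Rab1, which GENCODE names Rab1a) through a synonym. Cerebral cortex was taken from adult, untreated Abcb1a-EGFP/Rpl10a mice (line ES3026), giving 9 libraries in 3 groups of 3. The ES IP and JL IP libraries hold RNA immunopurified with antibodies against a tag on ribosomes. The JL input libraries hold RNA from the same kind of tissue without that purification. The letters ES and JL stand for the 2 people who extracted the RNA, and the submitters state no other distinction. Mice in all 3 groups carry the transgene, in which Abcb1a regulatory sequence drives a ribosomal protein fused to a green fluorescent protein, so cells in which this sequence is silent carry no tagged ribosomes, and no library came from a mouse without it. The labels do not say whether the libraries came from separate mice, so the p-values reflect library-to-library spread alone, which may be technical.

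Rab proteins are small GTPases that switch between a GTP-bound form on a membrane and a GDP-bound form in the cytosol. Exchange factors load them with GTP, TBC-domain proteins speed GTP hydrolysis, and the bound effectors tether, move or fuse vesicles. Different Rabs mark different compartments: Rab1 and Rab2 act between the endoplasmic reticulum and the Golgi, Rab5 on early endosomes, Rab7 on late endosomes, Rab11 on recycling endosomes and Rab3 and Rab27 in regulated secretion. In neurons, Rab3 proteins sit on synaptic vesicles, while in endothelium Rab27a and Rab3d are known from the storage granules of von Willebrand factor.

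The libraries held between 31987470 and 46598478 gene counts. The ribosomal RNA row Rn45s took 15.7 to 17.9% of these counts in the JL IPs, 6.04 to 12.03% in the ES IPs, with replicate 1 highest, and 4.83 to 5.29% among the inputs, and its part in the Rab values was not tested. Abcb1a, the gene whose sequence drives the tag, stood at 445, 482 and 446 CPM (library-size-scaled counts, with TMM factors over the 9 libraries) in the JL IPs, at 1.87, 2.66 and 1.81 in the inputs and at 56.0, 44.0 and 39.6 in the ES IPs. Of 12 endothelial markers, 12 were higher in the JL IPs than in the inputs, and their summed level was 7928 to 8582 CPM in the JL IPs, 51.1 to 57.0 in the inputs and 876 to 1526 in the ES IPs. Of 12 neuronal markers, 12 were lower in the JL IPs than in the inputs, with summed levels of 1999 to 2548 CPM in the JL IPs, 14916 to 15705 in the inputs and 17405 to 18938 in the ES IPs. Snap25 alone made up most of these sums, with means of 1349, 10289 and 11881 CPM in the same order. Between ES IP and input, 5 of the 12 were called higher, 2 lower and 5 were not called. Astrocyte markers summed to 319 to 465 CPM in the JL IPs, 2167 to 2328 in the inputs and 1350.0 to 1925 in the ES IPs, and oligodendrocyte markers to 321 to 475, 2349 to 2732 and 1092 to 1336. Choroid plexus and ependymal markers summed to 47.9 to 64.3 CPM in the JL IPs, against 644 to 738 in the inputs and 9.94 to 12.5 in the ES IPs. Ttr made up most of this sum in the JL IPs and inputs, with means of 47.2, 644 and 1.15 CPM in the same order. Between ES IP and JL IP, 2 of the 4 tested markers of this list were called higher and 2 lower. Microglial markers summed to 25.02 to 25.9, 72.7 to 78.8 and 38.1 to 47.4 CPM in the same order, and pericyte and smooth muscle markers to 18.9 to 37.6, 31.8 to 36.3 and 22.2 to 23.4. Against the inputs, the astrocyte marker Gja1 was called higher in the JL IPs (log2 fold change 0.87) and 7 other astrocyte markers lower. Acta2 of smooth muscle was called higher too (1.33), beside 4 pericyte and smooth muscle markers called lower and 3 not called. Kcnj8 was at 0 in 2 JL IPs, Cnn1 in 2 and Folr1 in 1, and no endothelial or neuronal marker was at 0. The part of these other cells in the Rab values was not tested, and in these bulk samples fewer cells of a type and less RNA per cell cannot be told apart.

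The Rab genes as a whole were well covered. Between 56 and 57 members had at least 1 count in each library, 52 to 53 reached 1 CPM and 43 to 46 reached 10 CPM. Rab20, Rab25 and Rab44 stayed below 1 CPM in every library, and Rab25 had 0 counts in all 6 IPs, where 3 counts would correspond to 0.0316 CPM over the JL IPs and 0.0237 CPM over the ES IPs. Summed per kilobase of exon, the family's level was 1863 ± 67.0 CPM per kb in the JL IPs, 1917 ± 20.7 among the inputs and 2385 ± 64.9 in the ES IPs (mean ± SD, n = 3 libraries here and below). The JL IP and input ranges overlapped, while each ES IP library lay above both. Summed without division by length, the level was 6074 to 6507 CPM in the JL IPs, 7819 to 7913 in the inputs and 8568 to 9569 in the ES IPs. On that scale no groups overlapped and the JL IPs lay lowest.

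**Figure D1:**
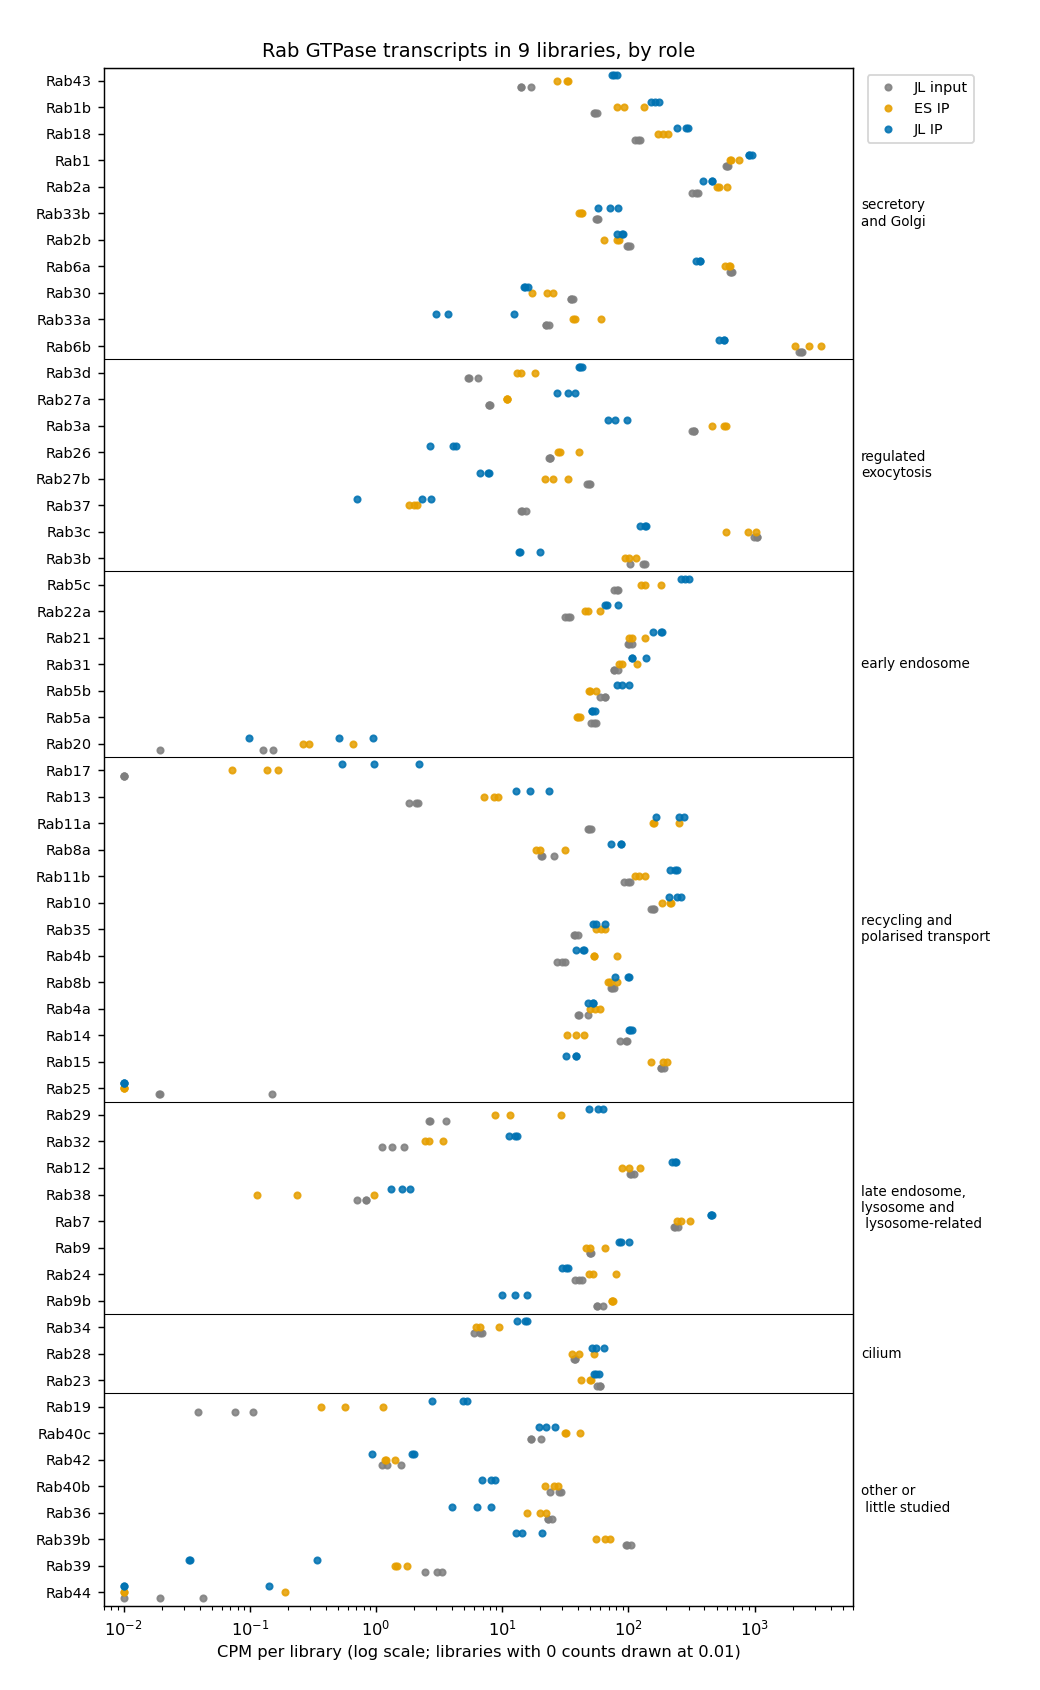
Level of each of the 58 Rab genes in each library, in CPM on a log axis, grouped by role and sorted within a role by the change between JL IP (blue) and JL input (grey), with ES IP in orange. Points are single libraries; a library with 0 counts is drawn at 0.01, as for Rab17 in the 3 inputs.

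Compared per length, the most abundant Rab transcripts differed between the groups. In the JL IPs the order was Rab1 at 241 ± 7.59 CPM per kb, Rab2a at 205 ± 18.8, Rab7 at 174 ± 3.05, Rab5c at 129 ± 9.50, Rab6b at 111 ± 6.27 and Rab6a at 96.8 ± 4.41, and no neighbours among these 6 overlapped between libraries. In the inputs Rab6b, a neuron-rich paralogue of the Golgi GTPase Rab6a, led at 461 ± 9.24 CPM per kb, followed by Rab6a at 175 ± 3.5. Rab2a at 159 ± 8.41 and Rab1 at 159 ± 2.98 overlapped there and were not ordered. Rab3a, the main synaptic vesicle Rab, came next at 146 ± 3.37 CPM per kb and Rab7 at 90.8 ± 3.60. In the ES IPs Rab6b stood at 541 ± 125 CPM per kb, above Rab2a at 256 ± 25 and Rab3a at 244 ± 32.6, which overlapped. Rab1 at 179 ± 17.1 and Rab6a at 165 ± 6.83 also overlapped, above Rab7 at 104 ± 13.3. With the longest annotated transcript as the length, Rab1 remained first in the JL IPs and Rab6b in the inputs and ES IPs, but Rab7 and Rab2a, and Rab6a and Rab6b, overlapped in the JL IPs, and Rab3c replaced Rab7 among the 6 highest in the inputs. Also in the inputs, Rab6a at 203 CPM per kb then lay below Rab1 at 213 and overlapped Rab3a at 209. In the ES IPs Rab3a at 348 then lay above Rab2a at 256 without overlap, and Rab2a overlapped Rab1 at 241.

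The division of the family among its roles differed in the same way. Rabs of regulated exocytosis made up 3.93 ± 0.470% of the summed Rab level per length in the JL IPs, 14.9 ± 0.351% in the inputs and 15.2 ± 1.14% in the ES IPs. Early endosome Rabs made up 12.6 ± 0.568%, 5.59 ± 0.135% and 5.95 ± 0.50%. Late endosome, lysosome and lysosome-related Rabs made up 19.6 ± 0.582%, 10.02 ± 0.0563% and 9.66 ± 1.52%. Recycling and polarised transport Rabs made up 16.9 ± 1.02%, 10.3 ± 0.218% and 12.3 ± 0.736%, and secretory and Golgi Rabs 44.4 ± 0.639%, 55.4 ± 0.325% and 54.1 ± 2.97%. For these 5 roles the JL IP libraries did not overlap the libraries of either other group. Rab6b alone accounted for 5.95 ± 0.507% of the summed level in the JL IPs, 24.04 ± 0.295% in the inputs and 22.7 ± 5.33% in the ES IPs. It belongs to the secretory and Golgi role, and shares of the same sum depend on each other. Its lower share in the JL IPs thus lowers that role's share and raises those of the other roles. Role shares without Rab6b were not computed.

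**Figure D2:**
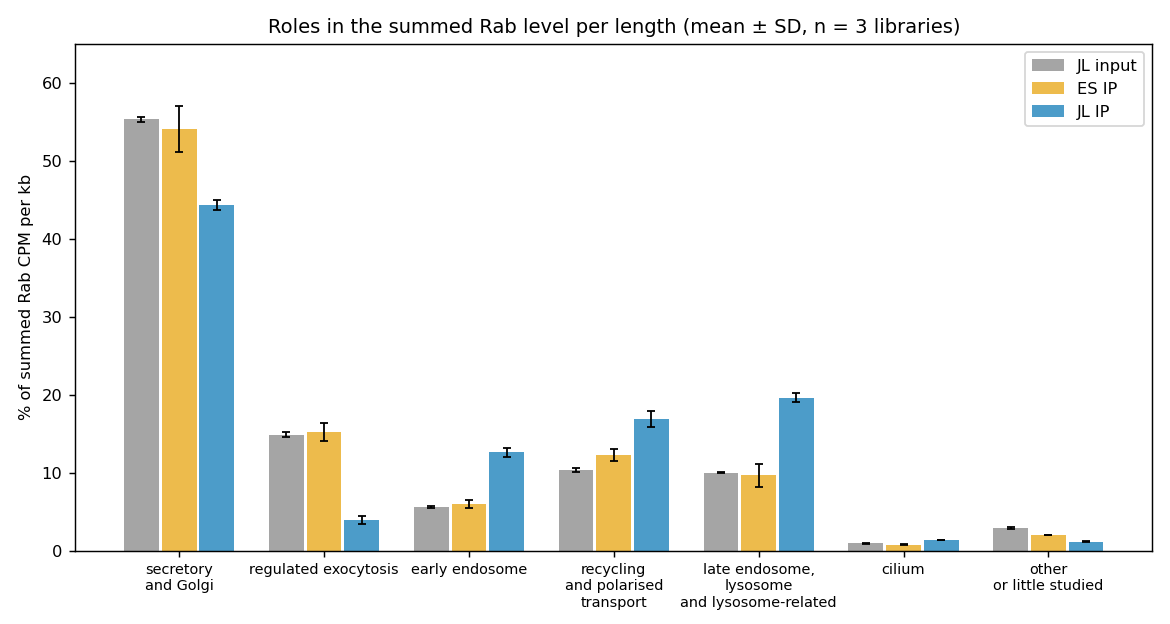
Share of each role in the summed level per length of all 58 Rab genes, in percent; bars are means and error bars SDs over 3 libraries. The exocytosis share was 3.93% in the JL IPs and about 15% in the other groups, and the early and late endosome shares were higher in the JL IPs.

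The first comparison set the IPs against the inputs within 1 investigator. With no library from a mouse without the transgene, RNA carried over unspecifically into the IPs was not measured. Of 55 Rab genes that passed the filter on low counts, 31 were higher and 18 lower in the JL IPs than in the inputs at an adjusted p under 0.05 in edgeR's quasi-likelihood test, and 6 were not called. Over all 17357 tested genes, 36.7% were called higher and 37.4% lower (74.1% in all), against 56.4% and 32.7% of the tested Rab genes. In each comparison the shares over all tested genes are also the background for the counts by role. The roles were assigned with earlier results known, and their counts are descriptions. The median log2 fold change was 0.51 over the tested Rab genes and -0.09 over all tested genes. Rab20, Rab25 and Rab44 did not pass the filter. Libraries of the 2 groups overlapped for 4 of the 55 tested Rab genes. The matching share over all tested genes was not computed, so this count shows nothing particular to Rabs.

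Regulated exocytosis Rabs split. Of 8 members, 2 were higher (Rab3d and Rab27a) and 6 lower (Rab3a, Rab3b, Rab3c, Rab26, Rab27b and Rab37), and none was left uncalled. Rab3d stood at 40.9, 41.0 and 43.1 CPM in the JL IPs against 5.35, 5.50 and 6.44 in the input libraries. Every JL IP library was far above every input library, with a log2 fold change of 2.85 ± 0.12 (SE; edgeR adjusted p = 1.13e-07). Rab27a, which recruits secretory granules to the plasma membrane, read 33.5, 38.0 and 27.3 CPM against 7.92, 7.91 and 7.95, a log2 fold change of 2.05 ± 0.15 (edgeR adjusted p = 2.64e-06). Its close paralogue Rab27b went the other way, at 6.73, 7.70 and 7.86 CPM against 49.4, 46.7 and 49.0 (-2.70 ± 0.11, edgeR adjusted p = 8.62e-08). Neither paralogue's groups overlapped.

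The 3 other Rab3 genes were all lower. Rab3a read 78.8, 68.7 and 98 CPM in the JL IPs against 317, 328 and 331 in the inputs (log2 fold change -2.0 ± 0.12). Rab3c, the most strongly counted of the set, read 137, 135 and 124 CPM against 1046, 1047 and 986 (-2.96 ± 0.07), and Rab3b 13.7, 13.7 and 19.9 against 103, 136 and 129.6 (-2.97 ± 0.18). Groups did not overlap for any Rab3 gene. Rab26, linked to secretory granules and to autophagy of synaptic vesicles, read 2.67, 4.30 and 4.06 CPM against 23.5, 23.8 and 23.9 (-2.69 ± 0.19). Rab37, a secretory granule Rab, read 2.30, 0.713 and 2.71 CPM against 15.6, 14.0 and 14.2 (-2.95 ± 0.40), resting on 25 to 82 counts per JL IP library. The 12 neuronal markers had a median log2 fold change of -2.53 in this comparison, and these 6 Rab genes lay between -2.97 and -2.0; the part of neuronal RNA in their values was not tested.

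Sequence just upstream of 3 of the Rab3 genes is shown because these paralogues moved in opposite directions, and that of Rab29 because it had the largest rise among the members with at least 5 CPM. The genes and the motifs were picked after their values were seen. Each run lies upstream of the gene's annotated starts in RefSeq, build GRCm38.p6, 5′ to 3′ on the gene's strand. Capitals mark matches on either strand to the GC box GGGCGG, the cAMP response element core TGACGT and the TATA box TATAAA; adjoining matches run together.
Rab3a: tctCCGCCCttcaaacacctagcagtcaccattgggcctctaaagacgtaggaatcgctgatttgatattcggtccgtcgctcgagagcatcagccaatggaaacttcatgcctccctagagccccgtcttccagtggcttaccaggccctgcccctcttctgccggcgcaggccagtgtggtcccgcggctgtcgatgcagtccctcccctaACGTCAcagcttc
Rab3b: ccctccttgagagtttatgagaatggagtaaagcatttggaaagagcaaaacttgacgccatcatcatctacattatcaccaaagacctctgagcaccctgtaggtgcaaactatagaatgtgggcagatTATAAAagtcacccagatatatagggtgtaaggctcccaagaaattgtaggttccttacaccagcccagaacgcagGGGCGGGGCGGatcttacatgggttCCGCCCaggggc
Rab3d: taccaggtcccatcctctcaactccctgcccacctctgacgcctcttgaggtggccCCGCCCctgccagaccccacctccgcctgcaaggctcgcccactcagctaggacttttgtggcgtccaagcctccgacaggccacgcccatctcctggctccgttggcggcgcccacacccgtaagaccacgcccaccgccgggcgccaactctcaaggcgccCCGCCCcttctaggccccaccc
Rab29: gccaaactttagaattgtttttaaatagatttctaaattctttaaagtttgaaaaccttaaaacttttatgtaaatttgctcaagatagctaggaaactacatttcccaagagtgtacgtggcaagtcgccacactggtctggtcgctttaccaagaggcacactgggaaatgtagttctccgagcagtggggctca

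The Rab3a run is chr8:70754453-70754678 on the plus strand, Rab3b chr4:108878820-108879062 on the plus strand, Rab3d chr9:21918193-21918433 on the minus strand and Rab29 chr1:131867027-131867223 on the plus strand. The Rab3d run had a G and C content of 69.3% and 2 GC boxes, Rab3a 58.8% with 1 GC box and 1 cAMP element core, and Rab3b 48.1% with 3 GC boxes, 2 of them overlapping, and 1 TATA box. The Rab29 run had 39.1% and no match to the 6 motifs searched, which besides those above were the ETS core CCGGAA, the E-box CACGTG and the forkhead motif TGTTTAC. Over whole windows of the 250 bases before a RefSeq start, 48 of the 58 members had 60 windows. The GC box was in 66.7% of these and in 32.7% of all 32851 windows, and the ETS core in 13.3% and 12%. The Rab windows also had a higher median G and C content, 60.2% against 52.4% over all windows, and a median of 15 CG dinucleotides against 6, and no share was adjusted for this. Windows of Rab genes higher in the JL IPs held the GC box in 65.7% and those of lower ones in 58.8%. A match describes letters in a window and is not a binding site.

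Among recycling and polarised transport Rabs, 10 of the 12 tested were higher, 1 was lower and Rab14 was not called (0.15 ± 0.08, edgeR adjusted p = 0.108). Rab13, which acts at tight junctions and in polarised delivery, read 12.9, 23.6 and 16.6 CPM in the JL IPs against 1.83, 2.08 and 2.15 in the inputs, with a log2 fold change of 3.13 ± 0.25 (edgeR adjusted p = 5.75e-06). Rab11a, the recycling endosome Rab, read 274, 251 and 167 CPM against 48.9, 47.8 and 50.8 (2.23 ± 0.17, edgeR adjusted p = 4.13e-06). Rab8a, a Rab of polarised exocytosis, read 87.2, 73.3 and 87.6 CPM against 20.5, 20.3 and 26 (1.89 ± 0.13). None of these 3 genes had overlapping groups. Rab11b rose by less, with a log2 fold change of 1.23 ± 0.08, and Rab10, Rab35, Rab4b, Rab8b and Rab4a lay between 0.26 and 0.61. The calls of Rab4a (edgeR adjusted p = 0.0459) and Rab8b (0.0206) were lost when single libraries were left out. With the replicate number as a block, that of Rab4a was lost too (adjusted p = 0.0518), and with library size alone as the scaling Rab4a came to 0.0009, Rab8b to 0.06 and Rab4b to 0.25 on the log2 scale, with adjusted p = 0.995, 0.586 and 0.0503. Rab15, a recycling Rab enriched in neural tissue, was lower at 38.7, 31.9 and 38.4 CPM against 179.9, 180.2 and 193 (-2.35 ± 0.10, edgeR adjusted p = 7.83e-08).

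Rab17, an epithelial recycling Rab, is named here after its values were seen. It had 16, 34 and 66 counts in the JL IPs, 0 in each input and 3, 6 and 7 in the ES IPs. Against a floor of 3 counts over the 3 inputs together, its JL IP level was at least 61.5-fold higher. The level itself was low, at 0.541, 0.969 and 2.18 CPM in the JL IPs, with replicate 3 highest; without that library the fitted log2 fold change moved from 8.65 to 8.03, values that depend on the prior count and are no bound.

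Early endosome Rabs had 5 of 6 tested members higher and none lower. Rab5c read 304, 281 and 262 CPM in the JL IPs against 80.9, 77.5 and 82.1 in the inputs, so that no libraries overlapped, with a log2 fold change of 1.81 ± 0.08 (edgeR adjusted p = 1.14e-07). Its paralogue Rab5b was 0.51 ± 0.10 higher, whereas Rab5a overlapped between groups at 51.1, 54.8 and 51.5 against 55.2, 53.3 and 50.3 CPM (-0.02 ± 0.08, edgeR adjusted p = 0.863); with library size alone it was called lower (-0.28, adjusted p = 0.0157). Rab22a, Rab21 and Rab31, which act in endosomal sorting and integrin traffic, rose by 1.11, 0.77 and 0.56 on the log2 scale.

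Of 8 late endosome, lysosome and lysosome-related Rabs, 5 were higher, 2 lower and Rab38 was not called. Rab29, a Golgi and lysosome Rab that binds the kinase LRRK2, read 63.3, 48.5 and 57.4 CPM in the JL IPs against input values of 2.63, 3.56 and 2.70. Its log2 fold change of 4.24 ± 0.17 (edgeR adjusted p = 7.72e-08) was the largest among members with at least 5 CPM in the higher group. Rab32, known from melanosome biogenesis and from mitochondrial contacts, read 11.3, 13.1 and 12.5 CPM against 1.67, 1.12 and 1.34 (3.15 ± 0.22, edgeR adjusted p = 2.57e-06). Groups overlapped for neither gene. Rab12 rose by 1.11 and Rab7, the late endosome Rab, by 0.93 on the log2 scale, the latter from 233, 230.2 and 248 CPM in the inputs to 449, 449.6 and 463 in the JL IPs. Rab9, which returns receptors from endosomes to the Golgi, read 87.8, 101 and 85 CPM against 50.2, 50.01 and 49.8 (0.86 ± 0.09). Its paralogue Rab9b, like Rab9 on the X chromosome, read 15.7, 9.95 and 12.5 against 62.4, 56.4 and 56.2 (-2.20 ± 0.16), so the pair moved apart without overlap. Rab24, linked to autophagy, was 0.35 lower on the log2 scale (± 0.10), and that call was lost without input replicate 2 (adjusted p = 0.0561) and in a fit of all 9 libraries (0.103).

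Of 11 secretory and Golgi Rabs, 6 were higher and 5 lower. Rab43, a Golgi Rab, read 74.5, 81.6 and 76.5 CPM in the JL IPs against 14.2, 14.2 and 16.9 in the inputs, with no overlap and a log2 fold change of 2.36 ± 0.10 (edgeR adjusted p = 1.31e-07). Rab1b rose by 1.57, Rab18 by 1.20 and Rab1 by 0.60, the last reading 949, 897 and 901 CPM against 614, 605 and 591. Both Rab6 paralogues fell, Rab6b from 2267, 2331 and 2358 CPM in the inputs to 521, 577 and 573 in the JL IPs (-2.06 ± 0.07) and Rab6a from 668, 644 and 646 to 342, 369.9 and 371 (-0.86 ± 0.06). Rab30 was 1.22 lower on the log2 scale. Rab33a, a brain and immune Rab of the Golgi, read 3.72, 2.99 and 12.3 CPM against 22.4, 23.4 and 22.1, where JL IP replicate 3 stood apart; its log2 fold change was -1.85 ± 0.47 and -2.76 without that library. Rab33b, at 71.3, 83.4 and 57.8 against 57.1, 56.1 and 55.6 CPM, was 0.33 ± 0.13 higher (edgeR adjusted p = 0.0413), and Rab2b, at 88.6, 91.5 and 81.6 against 99.5, 97.9 and 102 CPM, 0.20 lower (± 0.07, adjusted p = 0.0347). Rab33b kept its call without JL IP replicate 3 but lost it without any 1 of the other 5 libraries (adjusted p = 0.0719 to 0.105), and Rab2b kept its call without JL IP replicate 1 or 2 but lost it without any 1 of the other 4 (0.0558 to 0.113) and with the replicate number as a block (0.0719). Rab2a was 0.36 ± 0.09 higher and 0.10 higher with library size alone (adjusted p = 0.271). The Rab33b call was lost as well with library size alone (0.07, edgeR adjusted p = 0.629), with relative log expression scaling (0.0673) and in DESeq2 (adjusted p = 0.0727).

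Of the 3 cilium-linked Rabs, Rab34 (1.17 ± 0.15) and Rab28 (0.60 ± 0.10) were higher and Rab23, a brake on Hedgehog signalling, was not called (-0.07 ± 0.08), though called lower with library size alone (-0.33, adjusted p = 0.00481). Of the 8 other or little studied members, 7 were tested, with 1 higher, 4 lower and 2 not called; without JL IP replicate 2, Rab40c was a second higher member (adjusted p = 0.029). Rab39b, a neuronal X-linked Rab known from intellectual disability, read 12.8, 20.6 and 14.4 CPM in the JL IPs against 95.8, 97.8 and 104 in the inputs, apart in every library (-2.64 ± 0.17). Rab40b and Rab36 were 1.77 and 1.95 lower. A further 2 genes are named after their values were seen. Rab19 had 82, 185 and 148 counts against 4, 2 and 5 (5.81 ± 0.52), and Rab39 had 1, 12 and 1 counts against 127, 171 and 142 (-4.34 ± 0.76, and -6.34 without JL IP replicate 2).

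**Figure D3:**
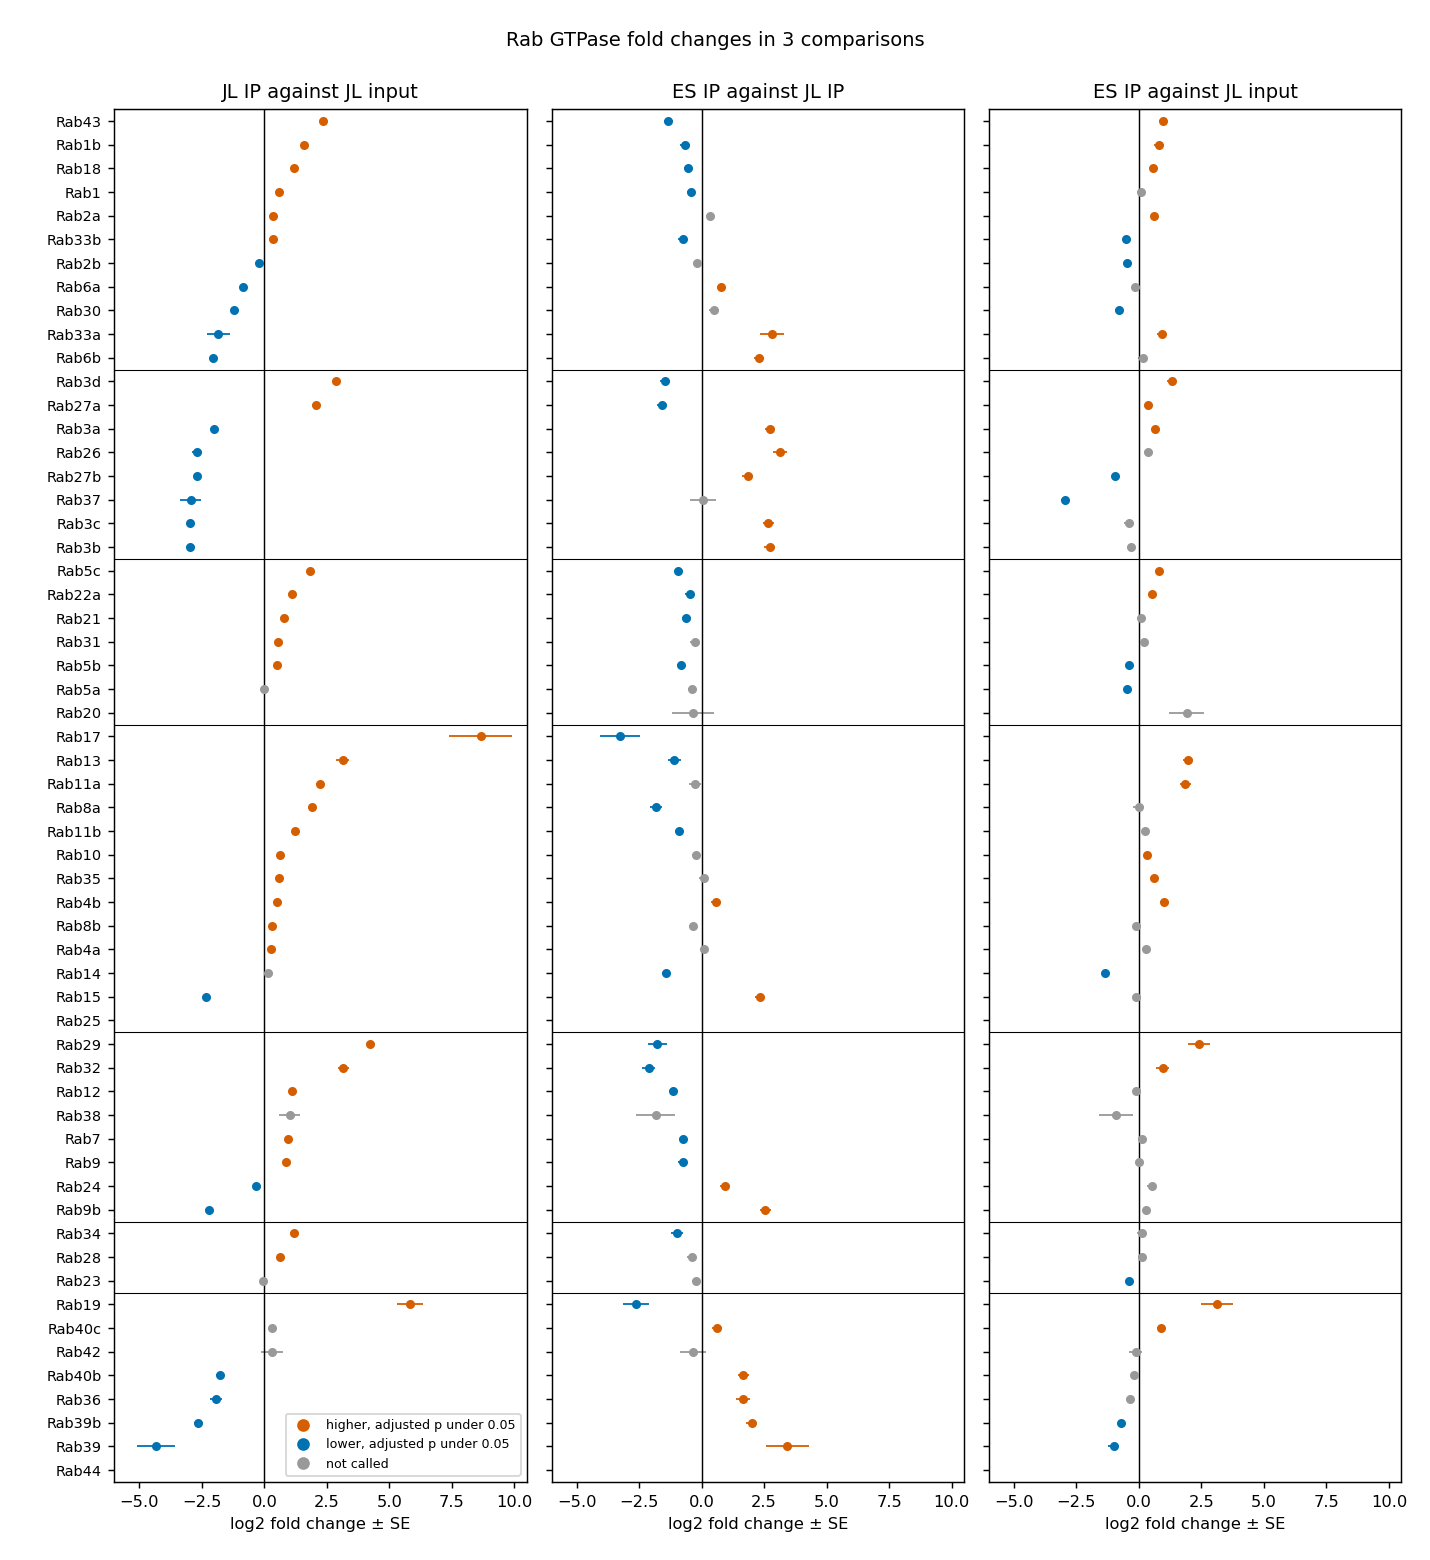
Fitted log2 fold change with its SE for each tested Rab gene in the 3 comparisons, in the gene order of the plot of levels; orange is higher, blue lower and grey not called at an edgeR adjusted p of 0.05. The comparisons share libraries; the 6 lower exocytosis Rabs lie between -2.97 and -2.0 in the left panel.

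Ratios within a library do not depend on its scaling, so close paralogues were also compared as shares of their set per length. Of 15 sets with at least 2 members, 5 had members called in opposite directions between JL IP and input: Rab2a and Rab2b, the 4 Rab3 genes, Rab9 and Rab9b, Rab27a and Rab27b, and Rab33a and Rab33b. The count was 3 without any 1 input library and in a fit of all 9 libraries, where neither Rab2b nor Rab33b was called. The Rab33 pair also stopped splitting with relative log expression scaling, in DESeq2 and without JL IP replicate 1 or 2. The Rab2 pair did so with the replicate block and without JL IP replicate 3. With library size alone Rab2a and Rab33b lost their calls, while the Rab5 set split through a lower Rab5a. Over all tested genes, 36.7% were called higher and 37.4% lower in this comparison. How often sets of unrelated genes would split was not computed, so the count only describes these sets. Rab27a made up 92.3 ± 1.52% of its pair in the JL IPs, 31.1 ± 0.613% in the inputs and 53.2 ± 5.25% in the ES IPs. Rab27a was thus the major member in the JL IPs and the minor one in the inputs. Rab9 made up 94.2 ± 1.59%, 66.1 ± 1.26% and 61.7 ± 4.44% of its pair. Rab3d made up 16.1 ± 1.45% of the Rab3 set in the JL IPs, 0.513 ± 0.0502% in the inputs and 1.04 ± 0.181% in the ES IPs, and Rab3a was the largest member in all 3 groups, at 58.9 ± 3.69%, 54.6 ± 0.817% and 70.3 ± 6.62%. Among the sets with no opposite calls, Rab6a made up 46.7 ± 0.302%, 27.5 ± 0.791% and 23.9 ± 4.79% of the Rab6 pair, and Rab8a 47.4 ± 5.25%, 23.2 ± 1.94% and 24.2 ± 6.83% of the Rab8 pair. Rab5c made up 80.4 ± 0.130%, 59.3 ± 1.10% and 77.0 ± 2.72% of the Rab5 set, where the ES IPs lay nearer the JL IPs than the inputs. Rab33b, at 79.0 ± 16.1% of its pair in the JL IPs, had the widest spread of the shares given here, with JL IP replicate 3 lowest at 60.6%. With the longest annotated transcript as the length, Rab6a made up 50.2% of its pair in the JL IPs and Rab27a 47.4% of its pair in the ES IPs. Which member was larger in those 2 cases thus depends on the length used. Reads that fit both members of a pair equally well may be left out or split by the counting, for which no rule is given in the sources used here.

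**Figure D4:**
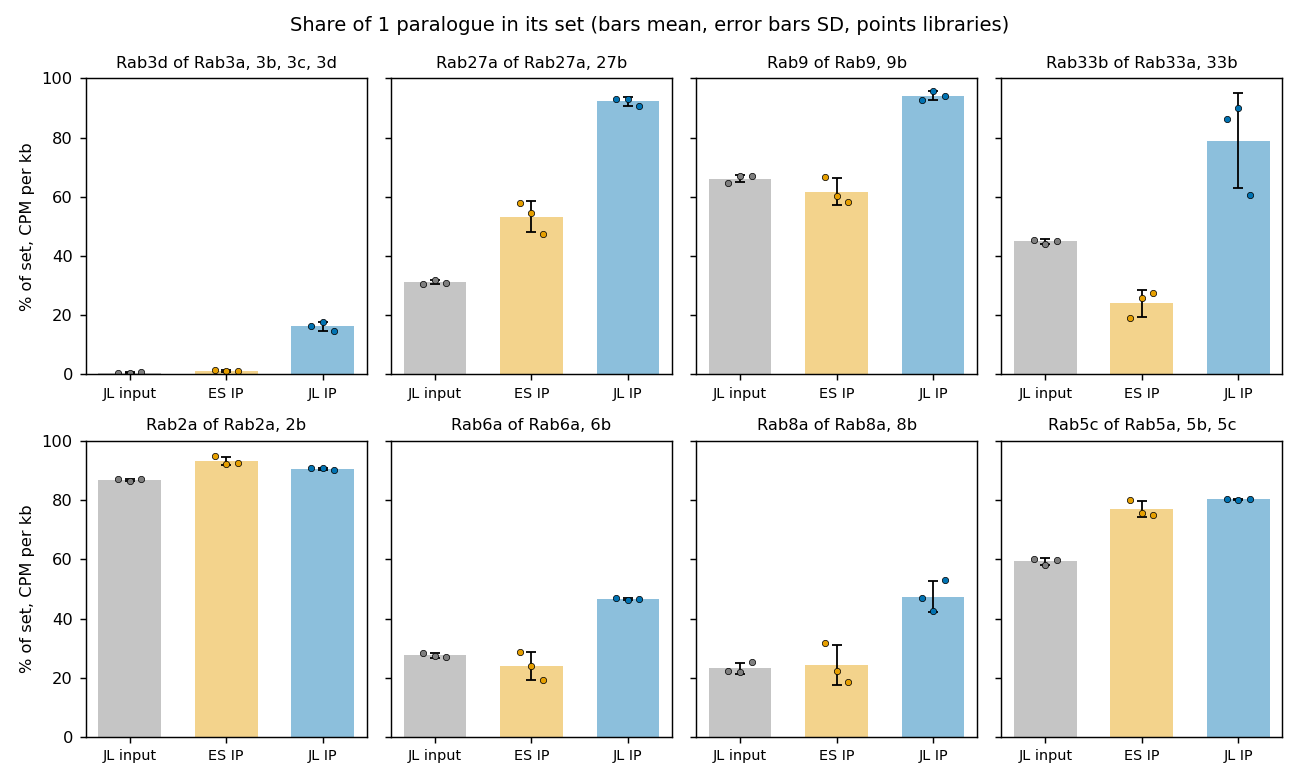
Share of 1 named paralogue in its set in each group, in percent of the set's summed CPM per kb; bars are means, error bars SDs and points the 3 libraries. Rab27a and Rab9 exceed 90% of their pairs in every JL IP library, and Rab33b varies most there.

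The second comparison set the IPs of the 2 investigators against each other. Of 56 tested Rab genes, 17 were higher and 23 lower in the ES IPs than in the JL IPs and 16 were not called, in edgeR's quasi-likelihood test. Over all 16212 tested genes, 29.7% were called higher and 28.2% lower (57.9% in all), against 30.4% and 41.1% of the tested Rab genes, so the share of higher calls was near the background. The median log2 fold change was -0.34 over the tested Rab genes and 0.03 over all tested genes. Per the file names, the 3 ES libraries came from 1 sequencing lane that no JL library shares, so investigator and lane cannot be told apart here. The 12 endothelial markers were all lower in the ES IPs and the 12 neuronal markers all higher, and their part in the Rab values was not tested.

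Of the 8 exocytosis Rabs, 5 were higher in the ES IPs, 2 lower and Rab37 was not called. Rab3a read 599, 567 and 460.3 CPM in the ES IPs, all above the JL IPs given above, with a log2 fold change of 2.73 ± 0.20 (edgeR adjusted p = 1.56e-06). Rab26 read 40.7, 27.8 and 28.7 CPM (3.14 ± 0.27), Rab3c 593, 882 and 1032 (2.66 ± 0.22), Rab3b 94.0, 116 and 101 (2.72 ± 0.21) and Rab27b 22, 25.1 and 33.2 (1.85 ± 0.22). Each of these lay above the JL IPs in every library. Rab3d at 18.3, 14.0 and 13 CPM (-1.46 ± 0.20) and Rab27a at 10.9 in each library (-1.59 ± 0.20) lay below them. Rab37, at 1.82, 1.99 and 2.12 CPM, overlapped the JL IPs (0.06 ± 0.52, edgeR adjusted p = 0.933), while it was 2.97 lower than in the inputs on the log2 scale (± 0.15, adjusted p = 5.86e-06).

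No early endosome Rab was higher in the ES IPs and 4 of 7 were lower, led by Rab5c at 181, 135 and 126 CPM (-0.93 ± 0.18, edgeR adjusted p = 0.00125). Without ES IP replicate 2 only 2 of the 7 were called lower, Rab21 (adjusted p = 0.0519) and Rab22a (0.144) losing their calls. Of the late endosome and lysosome Rabs, 5 of 8 were lower, led by Rab32 at 3.40, 2.44 and 2.65 CPM (-2.12 ± 0.26, edgeR adjusted p = 4.37e-05), and Rab9b and Rab24 were higher (2.55 ± 0.20 and 0.94 ± 0.21). Rab29 read 29.3, 11.5 and 8.74 CPM, with ES IP replicate 1 above the others. Its log2 fold change was -1.77 ± 0.38 against the JL IPs and 2.40 ± 0.44 against the inputs, and -2.48 and 1.68 without that library. Rab8a, at 31.6, 20.0 and 18.4 CPM, was 1.82 lower than in the JL IPs (± 0.23) and overlapped the inputs (-0.01 ± 0.22, adjusted p = 0.964). Rab11a overlapped the JL IPs instead, at 252, 157 and 158 CPM (-0.28 ± 0.24, adjusted p = 0.347), and was 1.86 ± 0.20 above the inputs on the log2 scale; without ES IP replicate 1 it was called lower than in the JL IPs (-0.55, adjusted p = 0.0365).

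Of the secretory and Golgi members, 3 were higher and 5 lower in the ES IPs. The 5 lower calls came to 2 without ES IP replicate 2 or without JL IP replicate 1, where Rab1, Rab18 and Rab1b were lost (adjusted p = 0.0575 to 0.138). They came to 3 without ES IP replicate 3 or JL IP replicate 2. Rab6b read 2097, 2711 and 3359 CPM (2.29 ± 0.20) and Rab6a 625, 636 and 587 (0.77 ± 0.16), and neither was called against the inputs. Rab33a, at 60.4, 38.0 and 36.6 CPM, was 2.83 ± 0.48 higher than in the JL IPs, and 3.75 higher without JL IP replicate 3. Rab43 was 1.33 lower, at 27.1, 33.1 and 32.5 CPM. Rab1, at 755, 652 and 634 CPM, was 0.43 lower (edgeR adjusted p = 0.0421), a call lost without any 1 of 5 of the 6 libraries, the exception being ES IP replicate 1, with adjusted p up to 0.138. Rab15, of the recycling Rabs, was 2.32 ± 0.18 higher.

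The third comparison, of ES IP with JL input, shares libraries with both others and crosses investigators. Of 55 tested Rab genes, 19 were higher, 11 lower and 25 not called; over all 17477 tested genes 26.9% were higher and 25.3% lower (52.2% in all), against 34.5% and 20.0% of the tested Rab genes. The median was 0.12 over the tested Rab genes and 0.00 over all tested genes, and without ES IP replicate 1 the Rab median was 0.006. Rab29, Rab13 (1.96 ± 0.18), Rab11a and Rab3d (1.31 ± 0.18) were among the higher members. Rab37, Rab14 (-1.35 ± 0.14) and Rab27b (-0.94 ± 0.16) were among the lower ones. Rab13 read 9.29, 7.13 and 8.59 CPM in the ES IPs, between the other groups in every library.

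For 54 members tested in all 3 comparisons, the ES IP mean lay between the JL IP and input means in 61.1%, against 52.6% of 15869 rows. Rab33a, Rab3a, Rab40c and Rab4b were called above both groups, 7.41% of the members against 8.90% of all rows, and Rab14, Rab33b and Rab5b below both, 5.56% against 4.8%; both shares were near the background. Rab14, a Rab between the Golgi and endosomes, read 32.8, 44.6 and 38.3 CPM in the ES IPs, against 102, 100.5 and 108 in the JL IPs and input values of 85.3, 95.6 and 97.6. Every ES IP library was below every other library for this gene. Rab3a, at 460.3 to 599 CPM, was likewise above every other library, and 0.65 ± 0.14 above the inputs on the log2 scale. Rab40c, a Rab with a ubiquitin ligase adaptor domain, read 41.3, 32.0 and 31.5 CPM and Rab4b, a recycling Rab, 80.6, 53.5 and 53.9, each above all other libraries. The call of Rab4b against the JL IPs (0.58 ± 0.20, adjusted p = 0.0287) was lost without ES IP replicate 1 or any 1 JL IP library, with adjusted p up to 0.101, and that of Rab40c (0.63 ± 0.20, 0.0178) without JL IP replicate 2 (0.0754). The Rab5b call against the inputs (-0.39, edgeR adjusted p = 0.0192) was lost without ES IP replicate 2 (0.056), input replicate 2 (0.0892) or input replicate 3 (0.0848). The Rab33a call against the inputs (0.91, edgeR adjusted p = 0.00601) was lost in a fit of all 9 libraries (0.0929).

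Genes that act on Rabs are given here for 3 lists. Between JL IP and JL input, 19 of 36 exchange factors were higher and 11 lower, 18 of 35 TBC-domain proteins higher and 10 lower, and 20 of 40 effectors higher and 15 lower. The median log2 fold changes were 0.35, 0.32 and 0.39 in that order, beside -0.09 over all tested genes, of which 36.7% were called higher and 37.4% lower.

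Rab11fip1, an effector of Rab11, read 200, 199 and 177 CPM in the JL IPs, against 2.02, 2.31 and 2.21 in the inputs and 24.1, 28.1 and 24.9 in the ES IPs. Its log2 fold change between JL IP and input, 6.46 ± 0.11 (edgeR adjusted p = 1.63e-09), was the largest of the 3 lists. Rin3, an exchange factor for Rab5 proteins, read 123, 118 and 109 CPM against 2.12, 1.64 and 1.49 (6.05 ± 0.14). Tbc1d4, a GTPase-activating protein known from insulin-driven glucose transporter traffic, read 82.1, 67.0 and 70.0 CPM against 6.65, 7.27 and 5.40 (3.5 ± 0.14). None of these 3 genes overlapped between the groups. At the lower end lay Sytl5, a Rab27 effector (-2.88 ± 0.23), Rabgap1l (-2.36 ± 0.09), a TBC-domain protein, and Dennd2a (-1.59 ± 0.23), an exchange factor.

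Between ES IP and JL IP, 8 of 35 tested exchange factors were higher and 13 lower, 13 of 35 TBC-domain proteins higher and 13 lower, and 16 of 40 effectors higher and 12 lower, beside 29.7% and 28.2% of all tested genes. The largest and smallest log2 fold changes among effectors were those of Rab11fip4, a neuron-rich Rab11 effector (3.43 ± 0.25), and Rab11fip1 (-2.90 ± 0.16). Among TBC-domain proteins they were those of Sgsm1 (3.05 ± 0.27) and Tbc1d4 (-2.41 ± 0.18). Among exchange factors they were those of Madd, which acts on Rab3 proteins (1.86 ± 0.21), and Dennd3, which acts on Rab12 (-2.79 ± 0.23). Between ES IP and JL input, 17 of 36 exchange factors were higher and 4 lower, 15 of 35 TBC-domain proteins higher and 4 lower, and 17 of 40 effectors higher and 5 lower, beside 26.9% and 25.3% of all tested genes. Several of these counts rest on single inputs. The 17 higher exchange factors came to 9 without input replicate 1 and 11 without replicate 2, and the 4 lower ones to 2 without any 1 input. The 4 lower TBC-domain proteins came to 2 without input replicate 1 and 1 without replicate 2, and the 17 higher effectors to 10 without input replicate 2 and 11 without replicate 3. Rab11fip1 and Rin3 were again the largest of their lists, at 3.47 ± 0.14 and 3.43 ± 0.20.

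Some Rab rows share sequence with other annotated genes. Exons of 10 members overlap an exon of a gene on the other strand, among them Rab3a with Mpv17l2, Rab6a with Mrpl48, Rab2b with Tox4, Rab24 with Prelid1 and Rab3b with 8030443G20Rik, and exons of Rab26 overlap Traf7 on the same strand. No strand setting of the counting is given in the sources used here; reads of such pairs cannot be told apart. Reads set aside as ambiguous were 2.04 to 2.13% in the JL IPs, 2.44 to 2.54% in the ES IPs and 10.3 to 11.3% in the inputs, as a share of reads counted to a gene, to no feature or as ambiguous, and their part in these values was not tested.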

How the data were processed

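Each deposited file gives the raw counts of 1 library by gene row; per the submitters' processing notes the authors aligned reads with STAR 2.0.0e to mm10 and counted them with HTSeq. The sources used here do not give the annotation, strand setting or filters. HTSeq's special rows entered neither library sizes nor tests; reads without a feature came to 17.3 to 24.4% of reads counted to a gene, to no feature or as ambiguous. No column was left without a sample.

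The test was edgeR 4.0.16's quasi-likelihood test under R 4.3.3 (filterByExpr with TMM factors, glmQLFit, glmQLFTest, Benjamini-Hochberg over all tested genes, threshold 0.05), with only the compared groups in each fit, and the code was tested on simulated data. SE is the fold change divided by the root of F. Levels are CPM; per kb uses the union of GENCODE M21 exons. Promoter windows are from RefSeq. DESeq2 1.42.0, other scalings, no filter, a replicate block, 1 fit of 9 libraries and leaving out each library were alternatives.

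Members and lists were chosen with earlier results of these data known. Named genes were the 8 largest and 8 smallest changes of JL IP against input with at least 5 CPM in the higher group, the 6 highest per kb in each group, paralogues with opposite calls, up to 5 members called outside both groups in the ES IPs, the extremes of each list of genes acting on Rabs, and Abcb1a; 1 such list is not reported here. Other members are named to account for each role, or as chosen after their values were seen. Per the file names, JL IP and input libraries of the same number share a sequencing lane; the labels do not say that they share a mouse. Their deviations from the group means correlated at 0.044 to 0.078, none above the 0.1 set for pairing, so the reported fits have no block, and the blocked fit was an alternative.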

Additional observations from a re-analysis of the deposited data

How the results depend on the processing

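No called Rab fold change reversed under any alternative run, and the counts of higher and of lower calls over all tested Rab genes stayed within 1.5 times the reported ones; several smaller counts by role, paralogue set or list moved by more and are given with their values above. Leaving out 1 library at a time gave 28 to 31 higher and 16 to 18 lower for JL IP against input, 15 to 17 and 18 to 27 for ES IP against JL IP, and 15 to 24 and 8 to 14 for ES IP against input. The median of ES IP against input moved from 0.12 to 0.006 without ES IP replicate 1, and ran up to 0.20 without ES IP replicate 2. With the replicate number as a block the counts were 30 higher and 17 lower, 17 and 23, and 17 and 11; correlations of deviations between same-numbered libraries were 0.044 to 0.078, -0.04 to 0.093 and 0.023 to 0.039, so the numbers were not taken to pair the libraries, although JL IP and input libraries of the same number share a lane, and in that comparison each library correlated best with its own number. The block ended the calls of Rab2b and Rab4a in the first comparison, Rab1 in the second and Rab27a and Rab10 in the third, and brought that of Rab38 in the second (-2.33, edgeR adjusted p = 0.043). Library size alone moved the median of all genes from -0.09 to -0.35 for JL IP against input and from 0.00 to -0.11 for ES IP against input, and gave 26 higher and 20 lower, and 17 and 13, Rab genes, and 8 lower effectors of ES IP against input in place of 5. Against the inputs, the ES IP call of Rab27a (0.38, edgeR adjusted p = 0.0331) was lost under library size alone (0.113), and those of Rab32 and Rab2b when single inputs were left out. Members below 1 CPM carry large counting error.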
